A study of Mus musculus with 17 samples.

Results

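Interferon-induced genes were followed in tibialis anterior muscle, which lies along the shin and is built of fast fibres, in mice with and without dystrophin. The members were taken from a list of 37 genes known to be induced by interferons. A gene entered when the array's probe table paired a probe set (the group of array probes that reports on a transcript) with that symbol alone, and where there were several, the one with the highest mean level stood for the gene. In this way 33 of the 37 genes were measured, among 12393 genes in all. Ddx58, Ifi44, Isg15 and Xaf1 had no such probe set.

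Expression was measured on 17 Affymetrix arrays, 1 per sample, and values are log2 expression values as deposited by the authors. The 6 normal arrays held muscle of wild-type mice. The 6 mdx arrays held muscle of the mdx line, in which a mutation of the dystrophin gene causes muscle fibre death and regeneration. The 5 fiona arrays held muscle of a transgenic line that carries the mdx background together with high expression of utrophin, a relative of dystrophin. All mice were labelled as males aged 56 days, both muscles of an animal were pooled, and every array is labelled as a biological replicate. The strain background and the promoter of the transgene are not given in the sources used here. Both the mdx and the fiona arrays carry the mdx mutation.

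Interferons are secreted proteins that warn cells of infection or damage. Type I interferons signal through JAK kinases to a complex that includes STAT2 and IRF9 and binds the interferon-stimulated response element in promoters, whereas interferon gamma acts at gamma-activated sites. The induced genes include RNA sensors, proteins that block viral replication, GTPases that attack pathogens, the machinery that shows peptides on MHC class I, and chemokines that draw T cells. In dystrophic muscle, both fibres and invading macrophages can express them, and in whole muscle more cells of a type cannot be told apart from more RNA per cell.

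Promoter sequence was read for the 28 measured members that RefSeq's promoter table (build GRCm38.p6) holds. The core of the interferon-stimulated response element was searched as GAAANNGAAA, and the gamma-activated site as TTCNNNGAA, on both strands within the 250 bases before each transcription start. The response element core occurred in 11 of 28 members (39.3%), against 3.35% of the 9882 tested genes in the table and 2.98% of all 32851 windows. The gamma-activated site occurred in 6 of 28 members (21.4%), against 7.32% of tested genes and 7.02% of all windows. A match describes letters in the window, not a bound site. Members whose levels are described below are shown, 5′ to 3′ on the strand of the gene, with the response element core in capitals for the first 4 and the gamma-activated site in capitals for the last 2.
Ifit1: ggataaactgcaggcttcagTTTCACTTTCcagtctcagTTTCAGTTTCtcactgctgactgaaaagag
Rsad2: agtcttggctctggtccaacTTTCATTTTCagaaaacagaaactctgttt
Bst2: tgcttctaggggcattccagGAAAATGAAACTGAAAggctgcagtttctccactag
B2m: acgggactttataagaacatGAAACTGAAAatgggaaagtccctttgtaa
Irf1: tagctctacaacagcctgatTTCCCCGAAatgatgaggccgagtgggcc
Irf8: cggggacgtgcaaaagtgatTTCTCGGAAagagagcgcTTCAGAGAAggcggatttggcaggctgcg

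The Ifit1 stretch lies at chr19:34640765-34640833 on the plus strand and holds 2 separate copies of the core. The 2 copies in Bst2 (chr8:71537567-71537622, minus strand) overlap each other, and a gamma-activated site shares bases with the first copy. Rsad2 (chr12:26456543-26456592, minus strand) and B2m (chr2:122147528-122147577, plus strand) hold 1 copy each. Irf1 (chr11:53769904-53769952, plus strand) holds 1 gamma-activated site and Irf8 (chr8:120736167-120736233, plus strand) holds 2. All of these 6 stretches lie upstream of the start of their gene in RefSeq's gene table of the same build.

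Several properties of the arrays touch the results. Array medians lay between 3.52 and 3.82, and correlations between arrays between 0.939 and 0.996. The array least like the others was mdx array 1, whose highest correlation with any array was 0.973, against 0.990 to 0.996 for the other arrays. On mdx array 1 the stress response genes Fos (10.26) and Ier3 (6.19) had their highest levels of the series, and Jun (6.96) its lowest. Fosb (2.04) and Junb (2.42) lay within their normal range. Egr1 (9.13), Hspa1a (4.58) and Hspa1b (6.88) were not at their highest on this array. The median of 8 RNA handling and stress genes lay 0.81 above normal there, -0.05 from it on mdx array 4 and between -0.08 and 0.57 on the other mdx arrays, and their part in the member levels was not tested. Dmd, the dystrophin gene, was lower in every mdx array (4.12 to 6.30) and every fiona array (4.20 to 6.70) than in any normal array (7.42 to 9.29). Utrn, which encodes utrophin, was not higher in fiona on its brightest probe set (6.50 to 7.11 in normal, 6.45 to 7.59 in mdx and 5.21 to 7.36 in fiona). On another of its 3 probe sets the fiona arrays read 4.94, 3.04, 3.78, 7.28 and 2.48, above all normal and mdx arrays (2.04 to 2.17), and on the remaining one 6.39, 2.68, 3.54, 7.02 and 3.02, against 2.57 to 2.77. These 2 probe sets were called higher in fiona than mdx, by 2.24 (SE 0.59) and 1.91 (SE 0.63), with adjusted p of 0.0126 and 0.0262 by limma over all probe sets. The rise was thus uneven over the fiona arrays, and whether the brightest probe set covers the transgene was not tested. Although the labels give males, 7 arrays had high Xist (7.73 to 8.53) with low Eif2s3y (3.32 to 4.45), the pattern of females. They were normal array 6, mdx arrays 1 and 4, and fiona arrays 1, 2, 3 and 5. The other 10 arrays had Eif2s3y at 7.22 to 9.70, and among them mdx array 6 had an intermediate Xist level of 5.40. After removal of group means, the largest component held 42.5% of the variance and divided the arrays into set 1 (3 normal, 3 mdx and 2 fiona) and set 2 (3 of each group). The level of 15 bacterial control probe sets that received no target lay between 2.64 and 2.99 across arrays. Of the 33 members, 24 exceeded that control level on all 17 arrays, while Adar, Mx2 and Tap2 were at or under it on every array, so their probe sets gave no measurable level.

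The members divided the mdx arrays. On mdx arrays 1 and 4, genes of the antiviral programme stood high, and on the other 4 mdx arrays the median member was at the normal level. The median member lay 0.82 above its normal mean on mdx array 1 and 0.63 above it on mdx array 4, but between -0.03 and 0.01 on the other mdx arrays. It lay between -0.02 and 0.10 on normal arrays and between -0.01 and 0.07 on fiona arrays. For 11 of the 33 members, mdx arrays 1 and 4 were the 2 highest of all 17 arrays, against 413 of 12393 genes (3.33%). These members were Irf7, Ifih1, Oasl2, Ifit1, Ifit2, Ifit3, Rsad2, Bst2, Usp18, Gbp3 and Cxcl9. Both arrays were singled out after their values were seen, so this count carries no test. In the promoter table, 10 of these 11 members were found, and 5 of the 10 held the response element core and 2 the gamma-activated site.

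**Figure D1:**
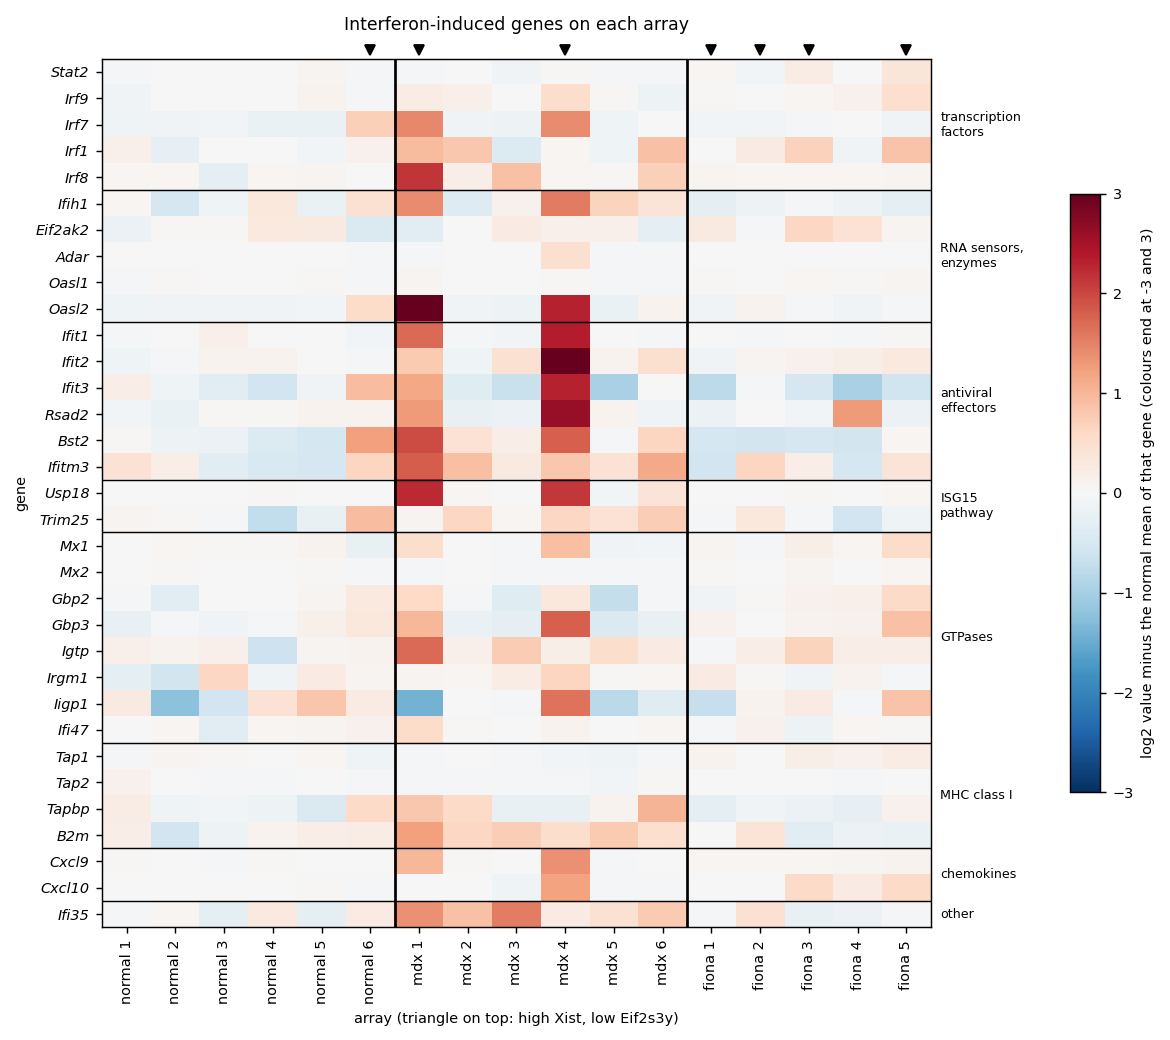
Log2 value minus the normal mean of the gene for the 33 measured members (rows, grouped by role) on each of the 17 arrays (columns), with red for higher and blue for lower, and triangles over the 7 arrays with high Xist and low Eif2s3y. The antiviral genes are red on mdx arrays 1 and 4, where the median member lies 0.82 and 0.63 above normal. B2m and Ifi35 lie above their normal mean on every mdx array, as do Ifitm3, Igtp, Trim25, Irgm1, Ifi47 and Irf8.

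In the comparison of mdx with normal muscle, which asks what the loss of dystrophin changes, 2 of 33 members were called higher and 0 lower by limma with Benjamini-Hochberg adjustment (adjusted p under 0.05). Over all genes 399 (3.22%) were called higher and 179 (1.44%) lower. The called members were B2m and Ifi35. At an unadjusted p under 0.05 stood 8 of 33 members, against 2149 of 12393 genes (17.3%). The median member difference was 0.35 on the log2 scale, against -0.04 over all genes, and 26 of 33 differences were above 0. Without mdx array 1 the median was 0.21, without mdx array 4 it was 0.17, and without both it was -0.01. In each of these fits the calls were again B2m and Ifi35.

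In the comparison of fiona with mdx muscle, which asks, by the labels, what raised utrophin changes on the mdx background, 5 members were called lower and 2 higher. The background was large here, with 841 genes (6.79%) lower and 3976 (32.1%) higher. Centring each array on its median turned that split into 784 lower and 654 higher, and quantile normalization into 569 lower and 1336 higher. The members called lower were Bst2, Ifi35, Ifitm3, Ifih1 and B2m. Their counterparts called higher, Tap1 and Mx2, lay near or under the control level. The median member difference was -0.31, against 0.08 over all genes. Without mdx arrays 1 and 4 it was 0.03, B2m and Ifi35 were called lower, and Gbp3, Tap1, Cxcl9 and Cxcl10 were called higher. Over all genes 4.16% were lower and 16.4% higher in that fit.

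In the comparison of fiona with normal muscle, 0 of 33 members and 0 of 12393 genes (0.0%) were called by limma. Even Dmd, with every fiona array below every normal array, was not called (difference -3.30, SE 0.50, adjusted p = 0.106). The absence of calls thus does not place fiona at the normal level. At an unadjusted p under 0.05 stood 1 member, Tap1, and 2626 genes (21.2%). The count of 0 turned on 1 array: without fiona array 2, 854 genes were called higher and 118 lower (7.84%), with Tap1 the member among them. The median member difference was 0.05, against 0.04 over all genes. The 3 comparisons share arrays, so their values are not independent of each other.

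**Figure D2:**
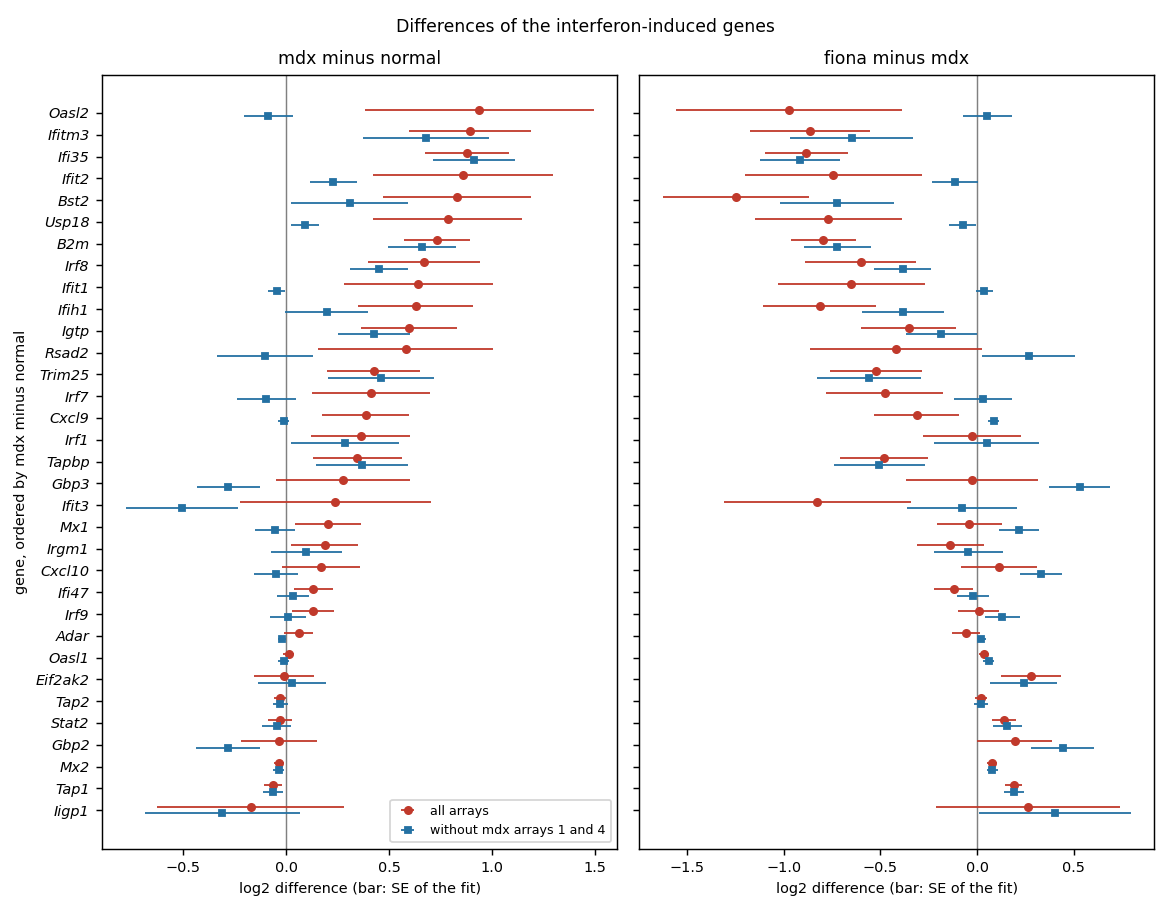
Log2 difference of each measured member with the standard error of the fit, for mdx minus normal (left) and fiona minus mdx (right), from all arrays (circles) and without mdx arrays 1 and 4 (squares). B2m and Ifi35 keep their place in both, while Oasl2 moves from 0.94 to -0.09 on the left and from -0.97 to 0.05 on the right.

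Among the MHC class I genes, B2m encodes beta-2 microglobulin, the invariant chain of the class I molecule. Its normal arrays spanned 10.29 to 11.09 with a median of 11.01, and its mdx arrays 11.36 to 12.08 with a median of 11.53. On fiona arrays 1 to 5 the values were 10.84, 11.27, 10.54, 10.67 and 10.65. Every mdx array lay above every normal array and above every fiona array, which held for B2m alone among the members and for 315 (2.54%) and 297 (2.4%) of all genes. The mdx level was higher than normal by 0.73 (SE 0.16, 1.66-fold, adjusted p = 0.0138, limma), and the fiona level was lower than mdx by 1.74-fold (difference -0.80, SE 0.17, adjusted p = 0.0115). Fiona and normal differed by -0.06 (SE 0.17). Within array set 1 the differences were 0.64 (adjusted p = 0.0336) and -0.79 (adjusted p = 0.018), and within set 2 they were 0.83 (adjusted p = 0.281) and -0.82 (adjusted p = 0.244). Without the 7 female-pattern arrays, which leaves 1 fiona array, they were 0.71 (adjusted p = 0.0677) and -0.85 (adjusted p = 0.0808). A second B2m probe set gave similar sizes, 0.79 and -0.73, with adjusted p of 0.143 and 0.0525 in a fit over all probe sets.

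None of the peptide transporter and loading genes was called in mdx against normal. Tapbp moved in the directions of B2m (0.35 for mdx minus normal and -0.48 for fiona minus mdx) without a call. Tap1 and Tap2 lay near or under the control level, so their probe sets cannot show whether they share that pattern. Tapbp, which encodes tapasin and holds class I molecules ready for peptide, had means of 7.96 ± 0.35 in normal (SD, n = 6), 8.30 ± 0.53 in mdx (n = 6) and 7.82 ± 0.17 in fiona (n = 5), and was called in 0 comparisons. Tap1, a subunit of the peptide transporter, spanned 2.72 to 2.95 in normal (median 2.88) and 2.74 to 2.85 in mdx (median 2.80). Its fiona arrays read 2.96, 2.86, 3.04, 2.99 and 3.10, all above every mdx array. The fiona level was higher than mdx by 0.19 (SE 0.04, adjusted p = 0.0135, limma), on a probe set close to the control level. Centring on the array median gave adjusted p = 0.0753, the mean of its 4 probe sets 0.17, set 2 alone 0.251 and the fit without the female-pattern arrays 0.0545. Tap2, the other subunit, had means of 2.27, 2.24 and 2.26 for the normal, mdx and fiona arrays, under the control level throughout.

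Ifi35, an interferon-induced leucine zipper protein, was the other member called in both comparisons. It spanned 5.29 to 5.88 in normal (median 5.59) and 5.83 to 7.12 in mdx (median 6.41), with mdx arrays 3 and 1 the highest. The fiona values were 5.54, 6.04, 5.37, 5.40 and 5.55. Of the mdx arrays 5 exceeded every normal array, and mdx array 4 was the exception at 5.83. The same count of 5 was reached by Igtp and Ifit2, which were not called. The differences were 0.88 for mdx minus normal (SE 0.21, 1.84-fold, adjusted p = 0.0202, limma) and -0.88 for fiona minus mdx (SE 0.22, 1.84-fold lower in fiona, adjusted p = 0.0135). Fiona and normal differed by -0.01 (SE 0.22). Without normal array 5 the first was no longer called (adjusted p = 0.0512), and without the 7 female-pattern arrays neither was (0.96 and -1.10, adjusted p = 0.0677 and 0.0928). Within sets 1 and 2 the first difference was 0.84 and 0.92 (adjusted p = 0.124 and 0.0905), the second -0.86 and -0.94 (adjusted p = 0.14 and 0.116).

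Among the antiviral effectors, Ifitm3, a membrane protein that blocks virus entry, had the largest mdx difference of its role. Normal arrays spanned 8.84 to 10.00 (median 9.30) and mdx arrays 9.61 to 11.18 (median 10.20), with mdx arrays 1 and 6 highest. The fiona values were 8.78, 10.00, 9.54, 8.83 and 9.75, so both comparisons overlapped. The difference of mdx from normal, 0.89 (SE 0.30), had an adjusted p of 0.113 by limma. It was called with the array set as a block (adjusted p = 0.00128) and in set 1 alone (0.0236). Over all genes 9.99% and 20.7% were called in those fits, against 4.66% in the main fit. The sets were drawn from these same values after removal of group means, so those calls carry no added support. Fiona was lower than mdx by 1.82-fold (difference -0.86, SE 0.31, adjusted p = 0.0396, limma). That call was lost without mdx array 1, 2, 4 or 6 and without fiona array 1, 3, 4 or 5, at adjusted p between 0.0504 and 0.0962. It was also lost with median centring (adjusted p = 0.0577), quantile normalization (0.14), the filter on dim genes (0.0537), a fit of mdx and fiona alone (0.0632), set 2 alone (0.215), without the female-pattern arrays (0.113) and without mdx arrays 1 and 4 together (0.134).

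Bst2, or tetherin, which holds budding viruses at the cell surface, had the largest fiona difference of the members. Its mdx arrays 1 to 6 read 7.44, 5.91, 5.68, 7.28, 5.44 and 6.12. Normal arrays spanned 4.96 to 6.71 with a median of 5.31, and the highest was normal array 6. The fiona values were 4.95, 4.93, 4.98, 4.92 and 5.53, of which 4 lay below every mdx array. Fiona was lower than mdx by 2.38-fold (difference -1.25, SE 0.38, adjusted p = 0.0203, limma), while mdx minus normal was 0.83 (SE 0.36, adjusted p = 0.245). Without mdx arrays 1 and 4 these became -0.73 (adjusted p = 0.0813) and 0.31 (adjusted p = 0.562). The fiona call was also lost with quantile normalization (adjusted p = 0.059), in set 1 alone (0.122), in set 2 alone (0.244) and without the female-pattern arrays (0.0737). Fiona minus normal was -0.42 (SE 0.38, adjusted p = 0.517).

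The IFIT proteins bind viral RNA and translation factors and are among the most strongly interferon-induced genes. Ifit1 read 3.72 on mdx array 1 and 4.38 on mdx array 4, and 1.94 to 2.20 on the other 15 arrays, which lie under the control level. Its means were 2.03 ± 0.08 for normal, 2.67 ± 1.09 for mdx and 2.02 ± 0.03 for fiona arrays. Ifit2 reached 7.29 on mdx array 4 and 4.64 on mdx array 1. Its other mdx arrays read 3.72, 4.31, 3.97 and 4.33, its normal arrays 3.72 to 3.97 (median 3.83) and its fiona arrays 3.75, 3.93, 3.98, 4.02 and 4.14. The mdx difference from normal was 0.86 (SE 0.44, adjusted p = 0.328, limma) and became 0.23 without arrays 1 and 4.

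Ifit3 read 7.88 on mdx array 4 and 6.72 on mdx array 1, and 5.22, 4.90, 4.59 and 5.55 on mdx arrays 2, 3, 5 and 6. Normal arrays spanned 5.00 to 6.50 (median 5.45), with normal array 6 the highest. The fiona values were 4.78, 5.50, 5.07, 4.59 and 4.97. Its differences were -0.83 for fiona minus mdx (SE 0.49, adjusted p = 0.191, limma) and -0.59 for fiona minus normal (SE 0.49, adjusted p = 0.476). Rsad2, which encodes viperin, read 6.66 and 7.98 on mdx arrays 1 and 4, 5.15 to 5.47 on the other mdx arrays and 5.17 to 5.48 on normal arrays. On fiona array 4 it reached 6.64, against 5.19 to 5.36 on the other fiona arrays. Group means were 5.37 ± 0.12, 5.95 ± 1.15 and 5.53 ± 0.62 in normal, mdx and fiona. Other Rsad2 probe sets read 2.78 and 2.53 on mdx array 1, and 2.87 and 3.81 on mdx array 4. Their normal means, 2.90 and 2.56, were near the control level. None of these 4 genes (Ifit1, Ifit2, Ifit3 and Rsad2) was called in any comparison, with an SD over 1 among the mdx arrays for each.

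**Figure D3:**
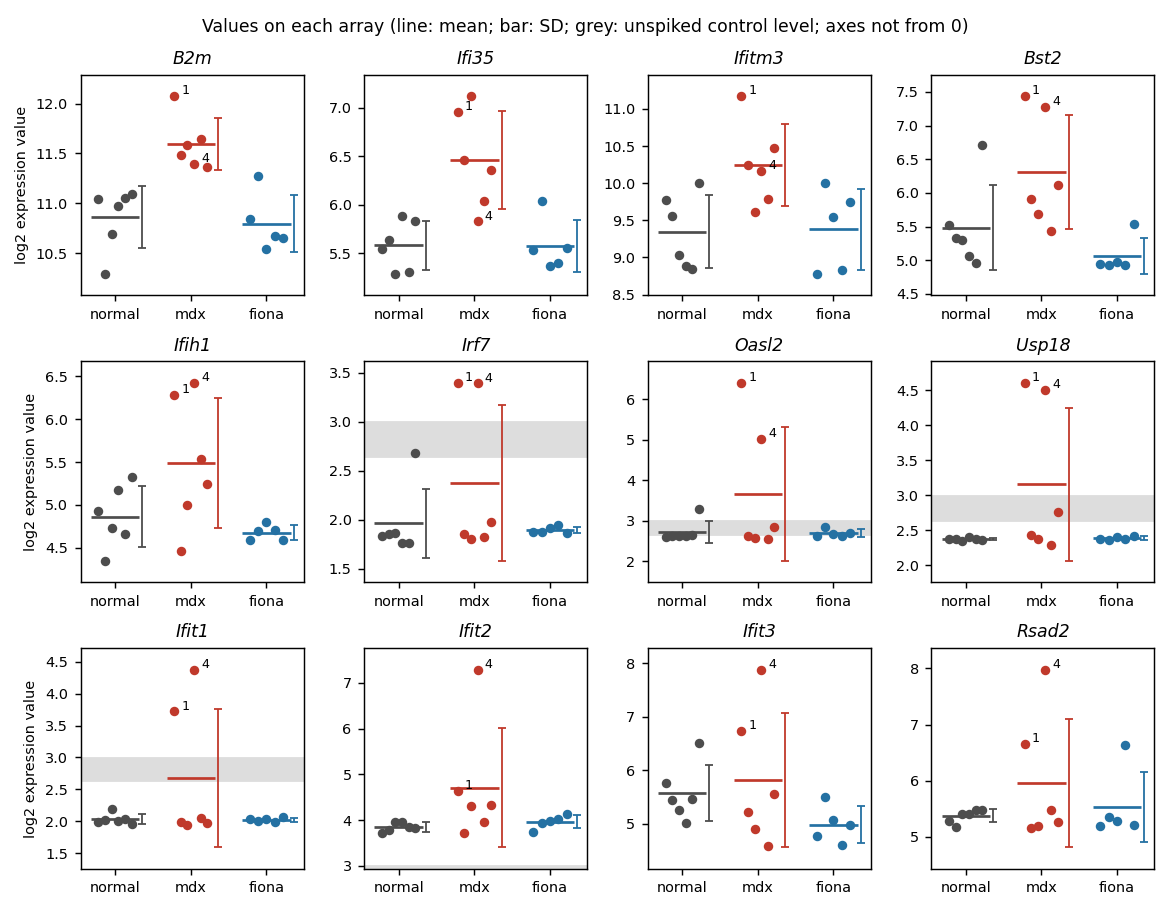
Log2 expression value of 12 members on each array by group, with the group mean (line), the SD (bar) and mdx arrays 1 and 4 numbered; the grey band is the range of the control level, 2.64 to 2.99, and the axes do not start at 0. For B2m all 6 mdx arrays lie above the normal and fiona arrays, whereas for Irf7, Oasl2, Usp18, Ifit1, Ifit2, Ifit3 and Rsad2 mdx arrays 1 and 4 are the highest. None of the other mdx arrays exceeds every normal array for these genes, apart from 3 for Ifit2 and 2 for Usp18.

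Among the RNA sensors and RNA-binding enzymes, Ifih1 encodes MDA5, a sensor of long double-stranded RNA. It read 6.29 and 6.43 on mdx arrays 1 and 4, and 4.46, 4.99, 5.54 and 5.24 on mdx arrays 2, 3, 5 and 6. Normal arrays spanned 4.35 to 5.33 (median 4.83), and fiona arrays read 4.59, 4.70, 4.80, 4.70 and 4.58. The mdx difference from normal was 0.63 (SE 0.28, adjusted p = 0.261). Fiona was lower than mdx by 1.76-fold (difference -0.82, SE 0.29, adjusted p = 0.0396, limma). The call was lost without mdx array 1, 4 or 5 or without any 1 fiona array (adjusted p between 0.0543 and 0.0815). It was also lost with median centring (adjusted p = 0.0554), quantile normalization (0.0839), the filter on dim genes (0.0538), a fit of mdx and fiona alone (0.0812), set 1 (0.0991) or set 2 (0.353) alone, and without the female-pattern arrays (0.589). The difference was -0.38 without mdx arrays 1 and 4 together.

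Oasl2, an oligoadenylate synthetase-like protein, had the widest range of the members. It read 6.41 on mdx array 1 and 5.03 on mdx array 4, and 2.62, 2.57, 2.54 and 2.84 on mdx arrays 2, 3, 5 and 6. Normal array 6 stood at 3.28 and the other normal arrays at 2.60 to 2.64. Fiona arrays read 2.63, 2.84, 2.67, 2.63 and 2.70. Apart from the 2 high mdx arrays, the levels were at or near the control level, and only 5 of the 17 arrays exceeded it. The differences, 0.94 for mdx minus normal (SE 0.56, adjusted p = 0.365, limma) and -0.97 for fiona minus mdx (SE 0.58, adjusted p = 0.201), became -0.09 and 0.05 without mdx arrays 1 and 4.

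The remaining genes of this role moved little. Eif2ak2, the kinase PKR that halts translation on double-stranded RNA, spanned 4.29 to 5.02 in normal (median 4.75) and 4.41 to 4.98 in mdx (median 4.81). Its fiona arrays read 5.00, 4.66, 5.34, 5.16 and 4.81, and fiona minus normal was 0.27 (SE 0.16, adjusted p = 0.309, limma). A second Eif2ak2 probe set exceeded the control level on 3 arrays only. It was called higher in fiona than mdx (0.175, adjusted p = 0.0198, limma over all probe sets). Oasl1 had means of 3.18, 3.19 and 3.23 in normal, mdx and fiona, with an SD under 0.05 in each group. Adar, an RNA-editing enzyme, had means of 1.77, 1.83 and 1.78, all under the control level.

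In the ISG15 pathway, which attaches a ubiquitin-like protein to targets, Usp18 encodes the enzyme that removes it and that damps the type I receptor. Usp18 read 4.60 and 4.50 on mdx arrays 1 and 4, 2.76 on mdx array 6, and 2.44, 2.38 and 2.29 on mdx arrays 2, 3 and 5. Normal arrays spanned 2.35 to 2.40 (median 2.37), and fiona arrays read 2.38, 2.36, 2.41, 2.38 and 2.43. All normal and fiona arrays were under the control level. The mdx difference from normal was 0.79 (SE 0.36, adjusted p = 0.281, limma) and 0.09 without arrays 1 and 4. Trim25, a ubiquitin ligase of the RNA sensing pathway, had means of 6.16 ± 0.54 in normal, 6.58 ± 0.29 in mdx and 6.06 ± 0.31 in fiona, with normal array 6 the highest of all at 7.07. A second Trim25 probe set differed more, by 1.15 for mdx minus normal (adjusted p = 0.0738) and -1.02 for fiona minus mdx (adjusted p = 0.0314) in a fit over all probe sets. It read 6.96 on mdx array 1 and 6.31 on mdx array 4.

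Among the 5 transcription factors that carry the signal, Irf7 alone had mdx arrays 1 and 4 as its highest. Irf7, which amplifies the type I response, read 3.40 and 3.39 on mdx arrays 1 and 4 and 2.68 on normal array 6. The other 14 arrays lay between 1.77 and 1.97, under the control level, and group means were 1.96 ± 0.35, 2.37 ± 0.79 and 1.90 ± 0.04. Irf8, a factor of macrophage and dendritic cell development, read 4.83, 2.85, 3.56, 2.73, 2.71 and 3.40 on mdx arrays 1 to 6. It lay between 2.39 and 2.76 on normal and fiona arrays, and its mdx difference of 0.67 (SE 0.27) had an adjusted p of 0.215. On this probe set Irf8 was thus high on mdx array 1 and not on array 4. A second Irf8 probe set, never above the control level, read 1.89 and 2.45 on these arrays. Its normal mean was 1.91.

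Irf1, an activator of interferon gamma targets, varied within groups, with 6.39 to 6.79 in normal (median 6.64), 6.21 to 7.59 in mdx (median 7.07) and 6.62, 6.87, 7.32, 6.52 and 7.49 in fiona. Fiona minus normal was 0.33 (SE 0.25, adjusted p = 0.426, limma), and mdx arrays 1, 6 and 2 were its highest mdx arrays. Irf9 and Stat2, which belong to the complex that binds the response element, had means of 4.78, 4.91 and 4.92 and of 2.92, 2.89 and 3.04 in normal, mdx and fiona. Neither was called.

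Among the interferon-inducible GTPases, the guanylate-binding and immunity-related proteins act on vacuoles that hold pathogens. Gbp3, a guanylate-binding protein, read 5.96 and 6.75 on mdx arrays 1 and 4 and 4.53 to 4.76 on the other mdx arrays. Normal arrays spanned 4.74 to 5.27 (median 4.90), and fiona arrays read 5.09, 4.97, 5.06, 5.10 and 5.84. Fiona minus normal was 0.25 (SE 0.34, adjusted p = 0.694, limma). Without mdx arrays 1 and 4, fiona was higher than mdx by 0.53 (adjusted p = 0.0439). Gbp2 had means of 5.63 ± 0.20, 5.60 ± 0.47 and 5.79 ± 0.25, and its second probe set read 5.19 and 5.17 on mdx arrays 1 and 4 against a normal mean of 3.82.

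Among the immunity-related GTPases, Igtp was high on mdx array 1 at 6.48 and read 4.95 to 5.55 on the other mdx arrays, with means of 4.79 ± 0.30, 5.38 ± 0.59 and 5.03 ± 0.26 in normal, mdx and fiona. Irgm1 had means of 5.05, 5.24 and 5.10, and Ifi47 of 3.21, 3.34 and 3.22. Iigp1 varied most within normal muscle (5.91 ± 0.75), with 5.73 ± 1.02 in mdx and 6.00 ± 0.55 in fiona. Its 2 probe sets disagreed on mdx array 1, at 4.50 on the one used and 6.23 on the other. Mx1, the classic influenza resistance gene, had means of 3.47 ± 0.12, 3.67 ± 0.42 and 3.63 ± 0.23, with mdx array 4 the highest at 4.38. Mx2 spanned 2.38 to 2.47 in normal (median 2.44) and 2.38 to 2.43 in mdx (median 2.39), and read 2.47, 2.44, 2.53, 2.45 and 2.49 in fiona. The limma call of Mx2 as higher in fiona than mdx (difference 0.08, SE 0.02, adjusted p = 0.0242) rests on values under the control level, and the difference was -0.05 after median centring and -0.01 after quantile normalization.

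The chemokines Cxcl9 and Cxcl10 draw T cells through the receptor CXCR3. Cxcl9 read 4.03 and 4.41 on mdx arrays 1 and 4 and 2.97 to 3.13 on the other 15 arrays. Its group means were 3.03 ± 0.03, 3.42 ± 0.63 and 3.11 ± 0.01 in normal, mdx and fiona. Cxcl10 was high on mdx array 4 alone among mdx arrays, at 6.20 against 4.89 to 5.03. Normal arrays spanned 4.96 to 5.04 (median 5.01), and fiona arrays read 5.03, 5.00, 5.58, 5.24 and 5.59. Fiona minus normal was 0.28 (SE 0.20, adjusted p = 0.397, limma). Without mdx arrays 1 and 4, fiona was higher than mdx by 0.33 for Cxcl10 (adjusted p = 0.0494) and by 0.09 for Cxcl9 (adjusted p = 0.0468).

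Counted by role, 5 of the 11 members highest on mdx arrays 1 and 4 were antiviral effectors, out of 6 in that role, and 2 were RNA sensors and enzymes, out of 5. The transcription factors (1 of 5), the ISG15 pathway (1 of 2), the GTPases (1 of 8) and the chemokines (1 of 2) each held 1. None of the 4 MHC class I genes was among them. The median mdx difference from normal was 0.74 for the antiviral effectors, 0.16 for the GTPases and 0.16 for the class I genes.

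The interferons themselves were low. Ifnb1, Ifna1, Ifna4 and Ifna11 were at or under the control level on all 17 arrays. Ifng (2.89 to 3.10), Ifnab (2.84 to 3.55) and Ifna5 (2.85 to 3.60) were above it on all 17 by small margins on most, and Ifna2 (3.35 to 3.75) and Ifna9 (3.24 to 4.07) stood clear of it. Of 14 ligand and receptor genes measured, 1 was called higher in mdx than normal by limma (7.14%, beside 3.22% of all genes). This was Il10rb, a receptor chain shared with interferon lambda, which differed by 1.40 (SE 0.16, adjusted p = 7.41e-05) and exceeded every normal array on all 6 mdx arrays. In fiona against mdx, 7 (50%) were called higher and 2 (14.3%) lower by limma, beside 32.1% and 6.79% of all genes. The 2 called lower were Il10rb by -1.21 (SE 0.17, adjusted p = 0.000557) and Ifngr1, the interferon gamma receptor, by -1.01 (SE 0.35, adjusted p = 0.0349). The 7 called higher were all interferon genes, Ifna9 (0.29), Ifnab (0.25), Ifng (0.12), Ifna1 and Ifnb1 (0.11 each), Ifna11 (0.10) and Ifna4 (0.075), beside a median of 0.08 over all genes, and 4 of them were never above the control level. Ifna5 (0.24, adjusted p = 0.0634) and Ifna2 (0.11, adjusted p = 0.136) were not called by limma. List medians were -0.04 and 0.11 in these comparisons.

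Of 28 signalling and sensing genes, 2 were called higher in mdx than normal (7.14%, beside 3.22% of all genes). They were Socs3, a feedback inhibitor of JAK signalling (1.40, SE 0.35, adjusted p = 0.0327), and Ptpn1, a phosphatase that acts on JAK kinases (0.65, SE 0.16, adjusted p = 0.0266). In fiona against mdx 7 (25%) were called higher and 2 (7.14%) lower, beside 32.1% and 6.79% of all genes. The 2 called lower were Samhd1 (-0.65) and Ptpn1 (-0.52), and the largest increases were Tlr3 (0.41), Ptpn11 (0.40), Tlr7 (0.38) and Dhx58 (0.22). The list medians were -0.02 and 0.06. On mdx arrays 1 and 4 the median gene of this list lay -0.02 and 0.01 from its normal mean, and 0 of its genes had both arrays as the highest 2.

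Among 50 other interferon-induced genes outside the members, 2 were called higher in mdx than normal (4%, beside 3.22% of all genes) and 0 lower, with a median of 0.18. They were Ifi30, a lysosomal thiol reductase of antigen processing (2.46, SE 0.19, adjusted p = 1.44e-06), and Cd47, a signal against phagocytosis (0.60, SE 0.16, adjusted p = 0.0435). In fiona against mdx 8 (16%) were called higher and 7 (14%) lower, beside 32.1% and 6.79% of all genes, with a list median of -0.19. The 6 largest were Ifi30 (-2.33), Lgals3bp (-1.45), Lgals9 (-1.42), Ifi27l2a (-1.29), Parp12 (-1.15) and Ifitm2 (-1.03). Ifi30 read 6.97 to 8.59 on mdx arrays, and 5.15 to 5.61 on all normal and fiona arrays. For 8 genes of this list mdx arrays 1 and 4 were the highest 2, namely Cmpk2, Lgals9, Nmi, Oas1a, Parp12, Parp14, Rtp4 and Trim34a. Rtp4 read 7.36 and 7.78 there and 3.96 to 5.78 elsewhere.

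Markers of other cell types were set beside these values. Of 16 macrophage markers, 11 (68.8%) were called higher in mdx than normal and 13 (81.2%) lower in fiona than mdx. Over all genes these shares were 3.22% and 6.79%, and the list medians were 2.67 and -2.62. The largest of the mdx increases were Mpeg1 (5.36), Tyrobp (5.31), Cd68 (4.44), C1qc (3.74), C1qb (3.35) and Fcgr3 (3.28). The largest of the fiona decreases were Tyrobp (-5.12), Mpeg1 (-4.41), C1qc (-4.29), Cd68 (-4.23), Fcgr3 (-3.33) and C1qa (-3.25). The mean level of the list was 4.12 to 4.85 on normal arrays, 6.51 to 7.61 on mdx arrays and 4.14 to 4.80 on fiona arrays, and 12, 13 and 11 of its genes were above the control level throughout these groups. As a list, macrophage markers were therefore high on all 6 mdx arrays. Single markers differed from this. Cd163 (-0.80) and Cx3cr1 (-0.03) were lower in mdx than normal without a call. C1qa on mdx array 1 (6.40) lay within its normal range. The list median stood 3.51 and 2.41 above normal on mdx arrays 1 and 4, and 1.90 to 2.92 above it on the other mdx arrays, whose median interferon-induced gene was at the normal level. B2m and Ifi35 moved with the macrophage markers between groups, and the part of macrophages in their change was not tested.

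**Figure D4:**
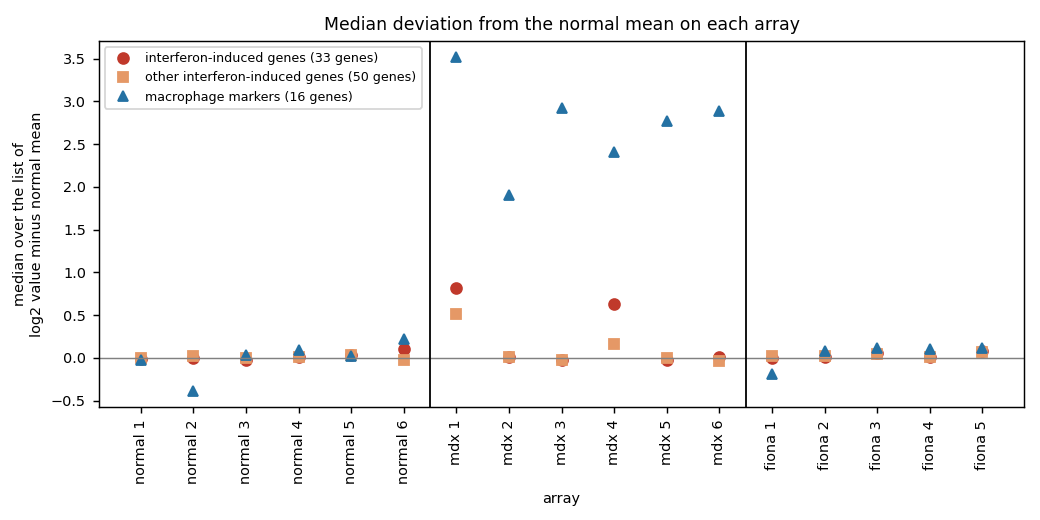
Median over each list of the log2 value minus the normal mean of the gene, per array, for the 33 interferon-induced members (circles), 50 other interferon-induced genes (squares) and 16 macrophage markers (triangles). The macrophage marker median is 1.90 or more above normal on all 6 mdx arrays, while that of the interferon-induced members stands apart on mdx arrays 1 and 4 only.

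Fibroblast markers also followed the groups. In mdx 2 of 6 were called higher, Lum (1.68) and Col3a1 (1.53), and in fiona 5 of 6 were called lower than mdx, Pdgfra (-1.94), Col3a1 (-1.76), Col1a2 and Lum (-1.56 each) and Dcn (-0.93). Their list medians stood 1.42 and 1.41 above normal on mdx arrays 1 and 4 and 0.37 to 1.34 on the others. Markers of T and NK cells, B cells, dendritic cells, neutrophils, endothelium and fast muscle had 0 calls for mdx against normal. Their genes with the smallest p were Cd28 (-0.10), Cd79a (-0.07), Zbtb46 (-0.15), Mpo (-0.16), Flt1 (-1.04) and Tnnt3 (-0.14). The median T and NK cell marker lay -0.03 and -0.05 from its normal mean on mdx arrays 1 and 4. In fiona against mdx 9 of 13 T and NK cell markers and 4 of 6 B cell markers were called higher, the largest being Cd2 (0.27) and Ms4a1 (0.67), with list medians of 0.15 and 0.14. Over all genes 32.1% were called higher in this comparison. Of the called markers, 4 of the 9 (Cd3d, Gzma, Gzmb and Klrd1) and 2 of the 4 (Cd79a and Cr2) were at or under the control level on every array, so they gave no measurable level.

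The female pattern on mdx arrays 1 and 4 was set beside the member levels. Of the 7 arrays with that pattern, mdx arrays 1 and 4 had a median member deviation of 0.82 and 0.63. Normal array 6 had 0.10, and fiona arrays 1, 2, 3 and 5 had -0.01, 0.01, 0.06 and 0.07. Among the members highest on mdx arrays 1 and 4, normal array 6 was the highest normal array for Irf7, Oasl2, Ifih1, Ifit3, Bst2 and Gbp3. For Ifit1, Ifit2, Rsad2, Usp18 and Cxcl9 another normal array was highest. The mean member deviation of normal array 6 was 0.20, against -0.11 to 0.01 on the other normal arrays. With the 7 arrays left out, the median member differences were 0.001 for mdx minus normal and 0.01 for fiona minus mdx, from 5 normal, 4 mdx and 1 fiona arrays. In that fit 0 and 2 members were called, the latter Rsad2 and Cxcl10 as higher on the single fiona array, against 3.08% and 12.8% of all genes. With the pattern as a covariate, 12 members were called lower in fiona than mdx and 2 higher, against 7.94% and 30.4% of all genes. In mdx both arrays with the high members carry the female pattern and 4 without it do not, so sex and whatever else marks these arrays cannot be told apart.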

How the data were processed

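Tibialis anterior RNA of 17 mice was measured on Affymetrix arrays. The table deposited by the authors holds log2 expression values per probe set, and per the submitters' processing notes RMA and GCRMA were used, without saying which made it. Versions, scanner files and background steps are not given in the sources used here. Values of probe sets near the control level often lie close together, with small standard errors. Small differences can be called there without a measurable level, such as 0.08 for Mx2 (SE 0.02).

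Of 22690 probe sets, 64 controls, 691 with several symbols and 1555 without a symbol were left out. The remaining 20380 gave 12393 genes, of which 4956 had several probe sets and 12369 were found in the RefSeq gene table. The probe set with the highest mean stood for each gene, and 10 members had several. Groups were compared by limma (version 3.58.1, R 4.3.3; lmFit, then eBayes; 1 fit of the 3 groups, two-sided, Benjamini-Hochberg over all genes, called at adjusted p under 0.05), tested on simulated data, in which 97.0% of 200 genes changed 4-fold between mdx and normal were recovered. The simulated noise was independent between arrays, and the largest member difference between mdx and normal was 1.92-fold (Oasl2). The recovered share thus does not describe how well differences of the members' size are found. Python 3.11.15 with matplotlib 3.10.9 made the figures. The number of arrays limits the precision.

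The members and gene lists were chosen with earlier results of these data known. Every member was named with its group means, and members called in a comparison or among the 6 largest differences of one were given in full. From each list, called genes were named, at most the 6 largest per comparison, or otherwise the gene with the smallest p. For fiona against mdx, some called markers of cell types other than macrophages and fibroblasts, and some small increases near the control level, were left out for length. Leaving out mdx arrays 1 and 4 together was added after the data were seen. The other alternatives were array scaling, probe set averaging, a filter on dim genes, blocks, array sets, the female pattern and leaving out each array.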

Additional observations from a re-analysis of the deposited data

Results flagged for a closer look

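In 99 groups of arrays (33 members in 3 groups), the highest or lowest array was compared with its neighbours by Dixon's gap test. The test marked 19 groups, of which about 5 would be marked by chance at 1 in 20.

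Normal array 6 stood above the other normal arrays for Irf7 (2.68, next 1.87), Oasl2 (3.28, next 2.64) and Bst2 (6.71, next 5.52). It is the normal array with the female pattern. The mdx array 4 stood above the other mdx arrays for Ifit2 (7.29, next 4.64), Cxcl10 (6.20, next 5.03), Irgm1 (5.70, next 5.27) and Adar (2.24, next 1.76), and the Adar values lie under the control level. Ifi47 was highest on mdx array 1 (3.76, next 3.31). With 2 high arrays in 1 group the gap between them and the rest escapes this test, as for Usp18 and Ifit1 in mdx.

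Among fiona arrays, array 5 stood above the others for Irf9 (5.27, next 4.90), Bst2 (5.53, next 4.98) and Gbp3 (5.84, next 5.10), array 4 for Rsad2 (6.64, next 5.36) and array 2 for Ifi35 (6.04, next 5.55). Low arrays were normal array 4 for Igtp (4.17, next 4.86) and normal array 3 for Irf8 (2.39, next 2.70) and Ifi47 (2.88, next 3.22). Under the control level, normal array 3 was high for Ifit1 (2.20, next 2.04), and Tap2 was high on normal array 1 (2.40, next 2.27) and on mdx array 6 (2.31, next 2.24).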

How the results depend on the processing

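The fit of all arrays called 2 members between mdx and normal, 7 between fiona and mdx and 0 between fiona and normal. Fiona against mdx gave 3 calls after median centring, 4 after quantile normalization, 4 with the filter on dim genes, 3 in array set 1 alone, 0 in set 2 alone, 2 without the female-pattern arrays and 14 with that pattern as a covariate. Over all genes its calls fell from 38.9% to 11.6% with median centring, 15.4% with quantile normalization, 22.8% with the dim filter and 0.888% in set 2 alone. For mdx against normal, 0 members were called in set 2 alone and 0 without the female-pattern arrays, where fiona against normal had 2 (3.76% of all genes). With the replicate block, mdx against normal had 1 call (B2m) and fiona against mdx 1 (B2m), and the median fiona against mdx difference was -0.35; over all genes fiona against mdx then had 4.11% called. That block ended the call of Ifi35 between mdx and normal (adjusted p = 0.0555) and, between fiona and mdx, those of Ifi35 (0.0507), Ifih1 (0.062), Bst2 (0.0635), Ifitm3 (0.0818), Tap1 (0.0507) and Mx2 (0.0846). Replicate numbers were not taken to pair the arrays. Deviations of same-numbered normal and mdx arrays correlated between 0.088 and 0.605, with 5 of 6 pairs over 0.1, those of normal and fiona between -0.488 and 0.483 (1 of 5) and those of mdx and fiona between -0.423 and 0.295 (1 of 5). All 6 normal and mdx pairs also lie in the same array set, and 2 of these 12 arrays correlated best with their own number. Leaving out 1 array at a time gave 1 to 2 calls between mdx and normal, 4 to 8 between fiona and mdx and 0 to 1 between fiona and normal (Tap1 without fiona array 2, where 7.84% of all genes were called), and medians of 0.17 to 0.46, -0.38 to -0.12 and 0.02 to 0.08. The median difference fell from 0.35 to 0.001 without the female-pattern arrays and to -0.012 without mdx arrays 1 and 4, and for fiona against mdx it moved from -0.31 to 0.011 and 0.030. Signs turned for Mx2 (fiona minus mdx -0.047 after median centring, -0.009 after quantile normalization), Irf1 (fiona minus normal -0.043 in set 1 alone, -0.085 without the female-pattern arrays), Gbp3 (fiona minus normal -0.318 with the pattern as a covariate) and Oasl2 (mdx minus normal -0.087 and fiona minus mdx 0.053 without mdx arrays 1 and 4). The causes were not tested. Levels near the control level, as for Mx2, Tap1, Tap2 and Adar, limit what these arrays can show.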

Other observations

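Genes outside the members and the list of other interferon-induced genes also stood high on mdx arrays 1 and 4. Over all 12393 genes, 16 exceeded their highest value on the other 15 arrays by more than 1 log2 unit on both. Of these 16, 3 were members (Oasl2, Usp18 and Ifit1), 2 were on the other list (Rtp4 and Trim34a) and 11 were on neither. The split depends on which genes the lists hold, and whether interferon induces any of those 11 was not tested. The largest gap was that of Atp1b4, a muscle protein of the sodium pump beta subunit family, at 7.94 and 10.93 against at most 6.17 elsewhere. Tnnt1, the slow troponin T, read 10.08 and 9.81 against at most 8.29, and Postn, the matrix protein periostin, 11.98 and 12.61 against at most 10.96. The cell division genes Uhrf1 (4.50 and 4.16, at most 2.81 elsewhere), Cks2 (5.83 and 5.45, at most 4.22) and Birc5 (5.34 and 4.45, at most 3.32) were also among them. So were Slfn4 (4.42 and 3.32, at most 1.99) and Ms4a4c (4.84 and 4.63, at most 3.55). The rest of the 11 were Dlk1, Maged1 and Kcne1l. These 2 arrays were picked after their values were seen, so the ranking describes them and carries no test.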
